A study of Caenorhabditis elegans with 2 samples.

Results

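The excretory canal genes are 32 *Caenorhabditis elegans* genes with named roles in the form or function of the excretory canal, out of 19973 protein-coding genes on the 6 nuclear chromosomes. They were listed by gene name, with earlier results of these data known, and all 32 were found in the annotation. Their peaks were read from chromatin immunoprecipitation with sequencing (ChIP-seq) of PROS-1, which recovers the DNA that a protein occupies. The tagged protein was eGFP-PROS-1 in strain OP500, with the genotype unc-119(tm4063) III; wgIs500, collected as whole late embryos of pooled sexes and of unknown age in hours. There was 1 group of 2 biological replicates, both with the same alleles, so no conditions were compared. The labels do not say what drives the transgene, and peaks of whole embryos cannot be assigned to the canal cell or to any other cell. Peak lists hold no expression values, so the set could not be checked against levels of canal RNA, and no embryos without the tag were analysed here.

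The excretory canal cell is a single, very large H-shaped cell whose hollow arms run along the body and collect fluid, which leaves through the duct and pore cells. Its lumen is kept open by an apical cytoskeleton of spectrin, actin and intermediate filaments, by membrane traffic under small GTPases, and by channels, aquaporins and a proton pump that move ions and water. PROS-1 is the worm member of the Prospero and PROX1 family of homeodomain transcription factors, and it is known to be needed for canal outgrowth.

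The authors deposited 30000 candidate regions for each replicate and 30000 for both replicates pooled, background included, and 737 regions of the pooled list that passed their irreproducible discovery rate (IDR) threshold, called IDR peaks here. Each region has a summit and the authors' signal value, a strength relative to a control on a scale that is not stated. Signal values were therefore compared only within a list, as ranks where 1 is strongest. The IDR peaks were the 737 strongest pooled candidates, with signal values from 26.4 to 127, and the first candidate outside had 26.37. The median was 8.05 over all pooled candidates, 3.33 in replicate 1 and 6.15 in replicate 2. Read totals were not analysed, so the depth behind each peak is unknown.

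Sequences around summits of 4 members are shown as examples chosen after their values were seen, and other strong upstream summits, such as those of inx-12, exc-5, lpr-1 and vha-1, are not printed. They are the IDR peak of exc-7, which was the strongest of the set, the next strongest exc-7 summit, the strongest summits of vha-8 and vha-5, which came nearest to the IDR list among upstream summits, and that of ral-1, for its repeat. Each spans 50 bp to either side of the pooled summit, and 100 bp for the exc-7 IDR peak, read from the RefSeq copy of WBcel235 (ce11). Capitals mark matches on either strand to the GC-box GGGCGG or to the GAGA repeat GAGAGAG. The Prospero-type core, AAGACG or AAGGCG, had no match in any of the 5.
exc-7, strongest summit (chrII:9574514-9574714, plus strand): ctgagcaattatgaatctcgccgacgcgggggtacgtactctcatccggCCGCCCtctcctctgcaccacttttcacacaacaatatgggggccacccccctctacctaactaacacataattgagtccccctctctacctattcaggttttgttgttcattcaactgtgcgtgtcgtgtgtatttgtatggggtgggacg
exc-7, second summit (chrII:9573626-9573726, plus strand): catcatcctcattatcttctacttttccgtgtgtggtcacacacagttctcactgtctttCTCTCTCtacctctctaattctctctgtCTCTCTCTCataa
vha-8 (chrIV:6790583-6790683, plus strand): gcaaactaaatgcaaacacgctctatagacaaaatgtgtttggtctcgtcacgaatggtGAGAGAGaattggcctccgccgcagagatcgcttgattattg
vha-5 (chrIV:8302088-8302188, plus strand): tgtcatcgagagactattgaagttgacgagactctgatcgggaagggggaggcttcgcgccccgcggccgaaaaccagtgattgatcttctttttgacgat
ral-1 (chrIII:3309081-3309181, plus strand): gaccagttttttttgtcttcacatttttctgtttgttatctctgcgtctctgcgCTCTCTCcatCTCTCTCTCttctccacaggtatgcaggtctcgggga

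The exc-7 peak held 1 GC-box, starting at base 50 of the sequence, 1 base too far from the summit to be counted within 50 bp. The second exc-7 summit and the ral-1 summit each held pyrimidine runs with 3 matches to the GAGA repeat on the minus strand, 2 of them overlapping. The vha-8 summit held 1 match on the plus strand, and the vha-5 summit held none of the letters searched. Over the members' 31 strongest summits, 4 held GAGAGAG within 50 bp of the summit (12.9%), beside 17.9% of all IDR peaks and 4.24% of all pooled candidates. The GC-box was found in 3 (9.68%), against 8.41% and 3.32%, and the Prospero-type core in 1 (3.23%), against 12.1% and 7.68%. The 4 members with the repeat were aqp-3, act-5, vha-8 and ral-1, the 3 with the GC-box were exc-9, inx-12 and inx-13, and the 1 with the core was aqp-3. The GC content within 100 bp of these summits was 44.4% ± 6.75 (SD over 31 summits), between 40.2% ± 7.47 for all pooled candidates and 49.6% ± 6.21 for IDR peaks. A match is a description of these letters only.

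Of the 32 canal genes, 2 had an IDR peak within the gene or 5000 bp upstream of it. These were exc-7, which encodes an ELAV-family RNA-binding protein, and inx-12, which encodes an innexin, a subunit of invertebrate gap junctions. The share was 6.25% (exact 95% binomial interval 0.766% to 20.8%), beside 6.0% of all protein-coding genes. A narrower promoter window took in 1000 bp before and 200 bp after each annotated start of a transcript, and there 1 of 32 members, inx-12, held an IDR summit. That share was 3.13% (0.0791% to 16.2%) against a background of 2.55%. Both shares were near their backgrounds. The intervals cover only the counting of genes, and they are wide at this list size.

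The exc-7 peak was the strongest of the set. It lay at chrII:9574452-9574775, between genes, with its summit 1357 bp upstream of the exc-7 start and 8947 bp from the start of the next nearest protein-coding gene, wee-1.1. Its pooled signal value was 51.7 and its rank 132 of 30000. In replicate 1 the matching summit, within 100 bp, had rank 100 and a signal value of 16.1, and in replicate 2 it had rank 203 and 35.8. Both replicates thus placed it among their strongest 737 candidates. Among the members this held for exc-7 only, and the share of all genes for which it held was not computed. A second summit 2295 bp upstream had a pooled signal value of 23.8 and rank 935, with rank 329 in replicate 1 and 3937 in replicate 2. The other 4 exc-7 candidates had signal values from 7.12 to 17.03, including 14.04 in the 5′ UTR, 232 bp past the start. By its strongest summit exc-7 stood at percentile 98.9 of all protein-coding genes.

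The other member of the gene regulation group, lin-48, stood apart from exc-7. It encodes a zinc-finger transcription factor of the Ovo family, and its strongest summit lay in a coding exon with a signal value of 8.47 and rank 13389. Replicate 2 had a summit there at rank 3939, and replicate 1 had none within 100 bp. Neither exc-7 nor lin-48 had a pooled candidate in its promoter window.

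**Figure D1:**
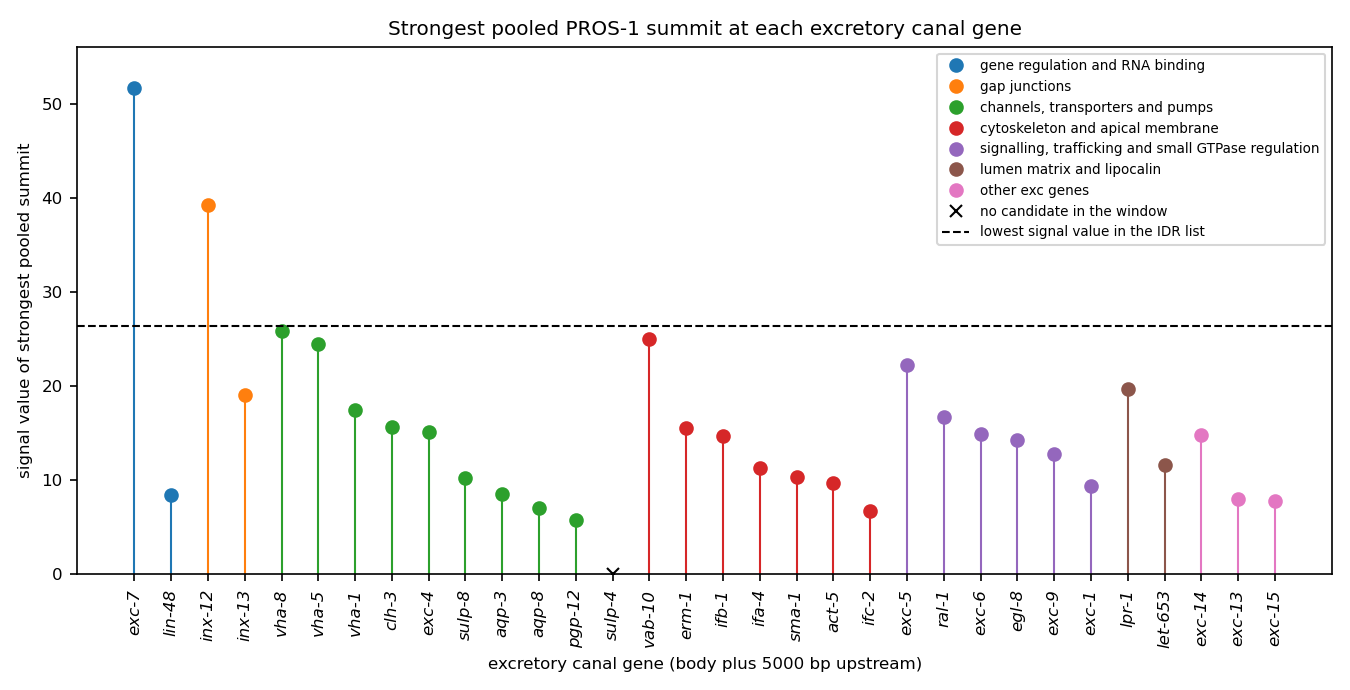
Signal value of the strongest pooled summit in the gene or 5000 bp upstream (y axis, authors' units relative to control) for each of the 32 members (x axis), coloured by role and ordered by value within a role. Only exc-7 at 51.7 and inx-12 at 39.2 lie above the dashed line, the lowest IDR signal value of 26.4, and sulp-4 has no candidate.

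The canal innexins inx-12 and inx-13 lie in tandem on the minus strand. The inx-12 peak (3759060 to 3759383 on chromosome I) had its summit 183 bp upstream of the start, in no other gene's promoter window, with a pooled signal value of 39.2 and rank 306. The replicates differed in how strong they placed it, at rank 2290 with signal value 6.38 in replicate 1 and at rank 312 with 30.8 in replicate 2. The −log10 q-value was 1.38 in replicate 1 and 3.28 in replicate 2, beside 3.11 in the pooled list, which is the highest value of that list. The peak was therefore among the strongest 737 candidates of replicate 2 and not of replicate 1.

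For inx-13 the strongest pooled summit was intronic, 4667 bp past the start but 2616 bp from the math-46 start. This summit had a signal value of 19.1 and rank 1458. Its ranks were 9882 in replicate 1 and 4016 in replicate 2. A different inx-13 summit had rank 726 in replicate 1. A pooled candidate 33 bp upstream of the inx-13 start had a signal value of 12.6 and rank 4476. The inx-12 peak lay 5264 bp upstream of the inx-13 start, just past the 5000 bp reach, and with a reach of 10000 bp inx-13 was counted as well, which gave 3 of 32 members against 8.96% of all genes.

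**Figure D2:**
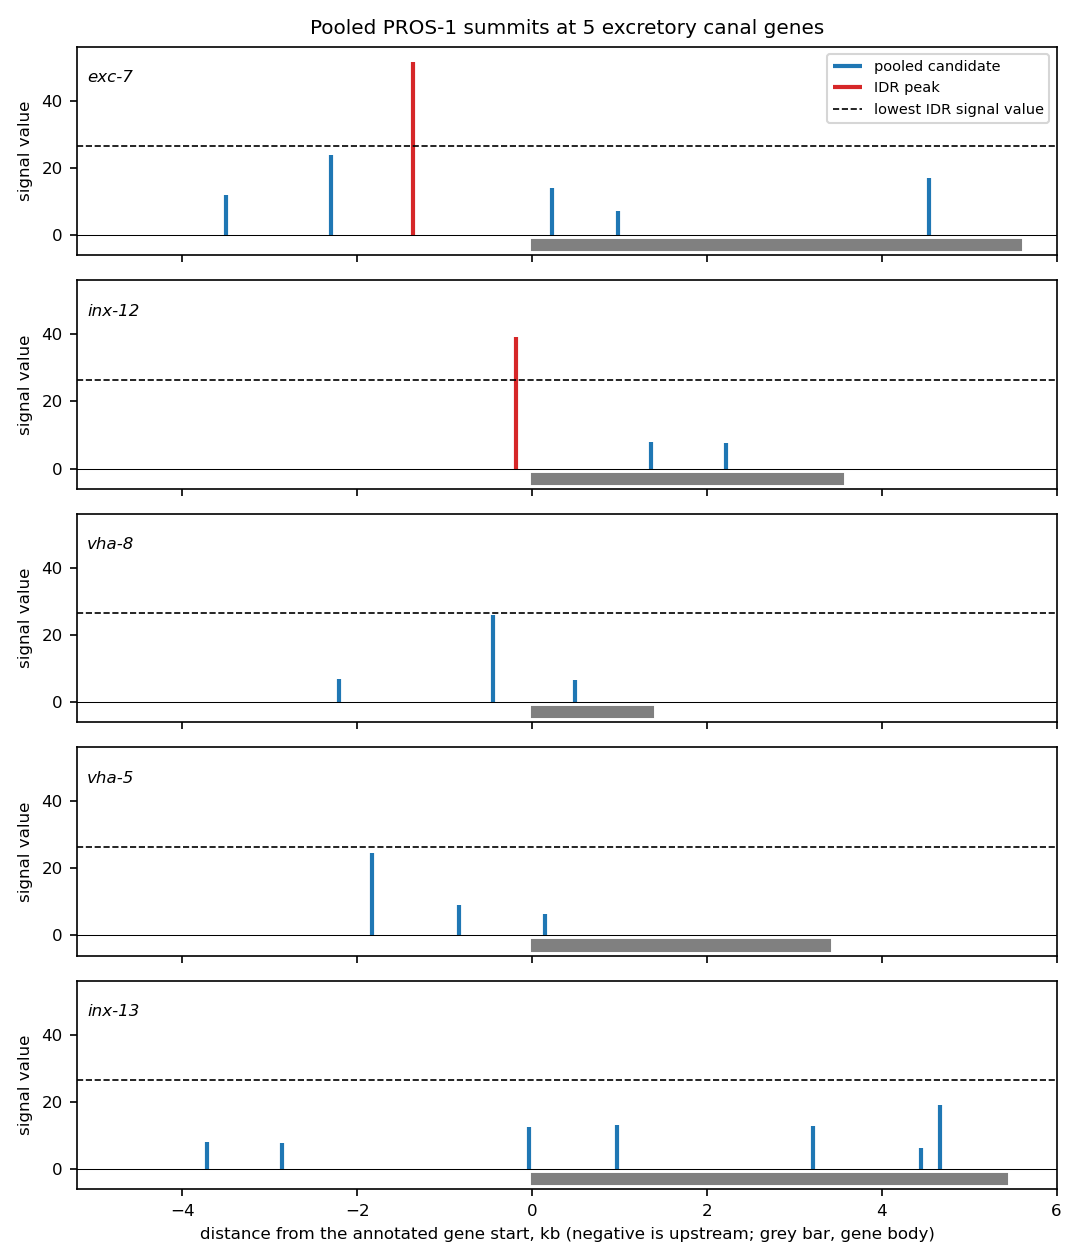
Pooled summits at exc-7, inx-12, vha-8, vha-5 and inx-13 by distance from the gene start (x axis, kb) and signal value (y axis, authors' units), with IDR peaks in red and the gene body as a grey bar. The exc-7 and inx-12 IDR peaks stand upstream of the gene, and the highest bars of vha-8 and vha-5 end just under the dashed line at 26.4, the lowest IDR signal value.

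A looser list took in more canal genes, and a larger share of them than of all genes. With the 2000 strongest pooled candidates in place of the IDR list, 10 of 32 members had a summit in the gene or 5000 bp upstream (31.3%, 16.1% to 50.01%), beside 14.7% of all protein-coding genes. In the promoter window 4 of 32 had one (12.5%), vha-1, vha-8, inx-12 and vab-10, beside 6.19%. Members have longer windows, with a median of 10.3 kb against 7.03 kb for all genes. In windows longer than the members' median the 2000 strongest reached 5 of 16 members (31.3%) and 27.0% of 2910 genes, and in shorter windows 5 of 16 members and 12.6% of 17063 genes. In the promoter window they reached 1 of 16 members with longer windows (6.25%) and 11.1% of such genes, but 3 of 16 with shorter windows (18.8%) and 5.34%. The IDR peaks reached 1 of 16 members in longer windows and 11.99% of genes, and 1 of 16 in shorter windows and 4.98%. Lengths were not matched further within the longer or the shorter windows, here or in the splits below.

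Nearly every member had some pooled candidate. The count was 31 of 32 in the gene or 5000 bp upstream (96.9%), where 84.0% of all genes had one, and 17 of 32 in the promoter window (53.1%, 34.7% to 70.9%), where 41.9% did. In replicate 1 alone 18 of 32 had a promoter candidate (56.3%) against 40.4%, and in replicate 2 alone 18 of 32 against 41.2%. By the strongest pooled summit the members' median percentile among all genes was 79.6, from 8.02 to 98.9, and 23 of 32 were above 50. With the promoter window alone the median percentile was 59.8. In windows longer than the members' median, the median percentile was 81.5 for 16 members and 72.0 for all genes, and in shorter windows it was 60.4 and 45.8. Pooled summits numbered 154 in 399.8 kb of merged member windows, or 0.385 per kb, beside 0.306 per kb for all genes, and 0.344 per kb without vab-10. IDR peaks were at 0.0050 per kb against 0.0076.

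**Figure D3:**
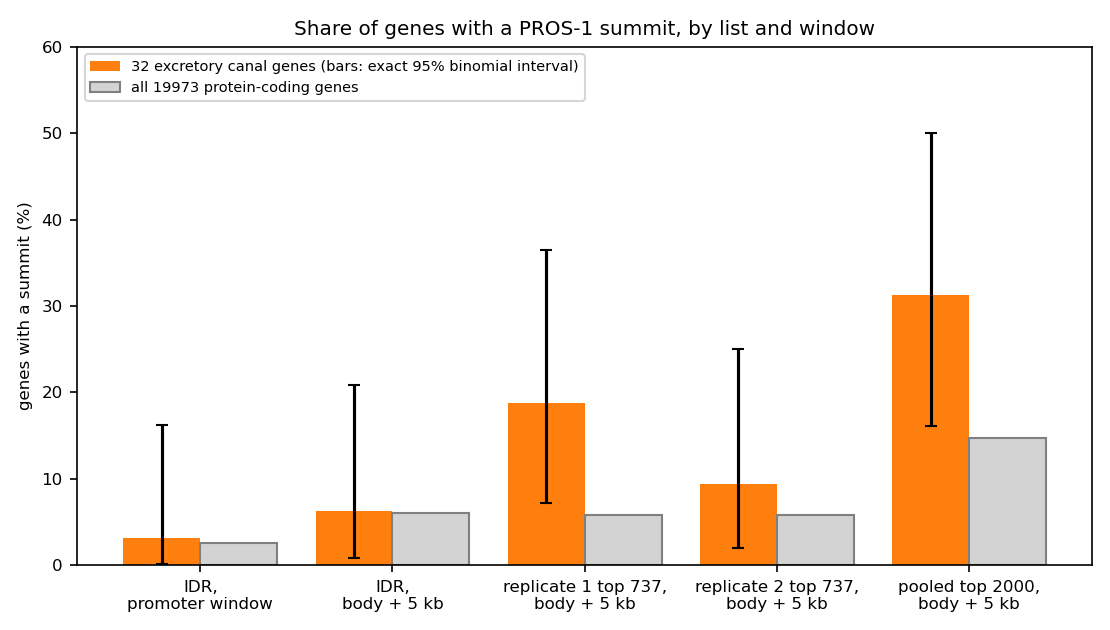
Share of genes (y axis, %) with a summit for 5 combinations of list and window (x axis), for the 32 canal genes in orange with exact 95% binomial intervals and for all protein-coding genes in grey. The IDR shares of 3.13% and 6.25% lie close to 2.55% and 6.0%, while the 2000 strongest pooled candidates reach 31.3% of canal genes and 14.7% of all.

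Introns and coding exons together held 89 of the members' 154 candidates (57.8%), of which 17 coding exon and 14 intron summits were in vab-10. Of the 154 pooled summits in member windows 50 were intronic (32.5%), 39 were in coding exons (25.3%), 34 were in a promoter window of some gene (22.1%) and 25 were intergenic (16.2%). Over all pooled candidates promoters took 31.6%, introns 23.4% and coding exons 6299 of 30000, and among IDR peaks promoters took 54.3%. Without vab-10, which held 38 of the 154, introns and coding exons took 58 of 116 summits, promoters 29 and coding exons alone 22 (18.97%). The window counted here holds whole gene bodies, which all candidates do not share. Of the 31 strongest member summits, 20 lay upstream of the member, 7 in its introns and 4 in its coding exons. In 6 of 31 the summit was in the member's own promoter window, those of act-5, erm-1, inx-12, vab-10, vha-1 and vha-8. The member's own start was the nearest in 16 of 31. Another gene's start was nearer for exc-5, exc-6, exc-13, exc-14, sma-1, aqp-3, aqp-8, ifa-4, pgp-12, clh-3, sulp-8, vha-5, vha-8, inx-13 and egl-8. These counts over strongest summits were not made for all genes, so they have no background to stand beside.

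Among the channels, transporters and pumps, 3 subunits of the vacuolar proton pump, the V-ATPase, ranked highest. The E subunit gene vha-8 had a signal value of 25.9 and rank 766, 441 bp upstream of its start, just outside the IDR list. That promoter is shared with C17H12.2, whose start lay nearer at 145 bp. The vha-8 summit had rank 4789 in replicate 1 and 1088 in replicate 2.

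For vha-5, an a subunit gene of the membrane sector, the strongest summit lay 1830 bp upstream between genes, with a signal value of 24.5 and rank 868. The start of F35H10.5 was closer, at 1370 bp. Replicate 1 gave it rank 721, among its strongest 737, and replicate 2 gave it rank 1855. For vha-1, a proteolipid subunit gene, the summit 416 bp upstream had a signal value of 17.5 and rank 1782, with rank 1301 in replicate 2 and no summit within 100 bp in replicate 1. It too lay in a shared promoter, with the sqv-3 start 484 bp away.

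The other 7 genes of the group ranked lower. The CLC chloride channel gene clh-3 had rank 2385, but its summit lay 306 bp from the start of F32A5.4. The gene of the chloride intracellular channel homologue EXC-4 had an intronic summit at rank 2632 with a signal value of 15.1, and its ranks were 612 in replicate 1 and 14230 in replicate 2. The anion transporter gene sulp-8 had rank 8200, 2620 bp upstream but 1990 bp from the cthd-1 start. That summit had rank 636 in replicate 1 and no replicate 2 partner within 100 bp. So exc-4 and sulp-8 were strong in replicate 1 only. The aquaporin genes aqp-3 and aqp-8 had signal values of 8.58 and 7.10 and ranks of 12938 and 19525, and the ABC transporter gene pgp-12 had 5.76 and rank 28280, close to the end of the list. The anion transporter gene sulp-4 had no pooled candidate and no replicate 2 candidate, and its best replicate 1 rank was 10590. The group's percentiles ran from 8.02 for sulp-4 to 93.8 for vha-8, with a median of 69.1.

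Among the 7 genes of the cytoskeleton and apical membrane none had an IDR peak, beside 6.0% of all genes. In the promoter window 6 of the 7 had a pooled candidate, beside 41.9% of all genes. The spectraplakin gene vab-10, a linker of actin and microtubules, had the strongest, with a signal value of 25.04 and rank 828. It lay inside the gene, 828 bp upstream of an internal start, and had rank 570 in replicate 1 and 1051 in replicate 2. This gene spans 57568 bp with 8 annotated starts and held 38 pooled candidates, and its window was the longest of the set.

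The ezrin-radixin-moesin gene erm-1 followed, with a signal value of 15.5 and rank 2432, 332 bp upstream of the start. Replicate 2 had rank 1604 there and replicate 1 had no summit within 100 bp. The intermediate filament genes ifb-1, ifa-4 and ifc-2 had ranks of 2900, 6168 and 21730. The beta-heavy spectrin gene sma-1 had rank 7870 and the actin gene act-5 rank 9382, with its summit 198 bp upstream of the start. The group's percentiles ran from 24.5 for ifc-2 to 93.3 for vab-10, with a median of 64.4.

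None of the 6 genes of signalling, traffic and small GTPase regulation had an IDR peak, beside 6.0% of all genes. The gene of the guanine nucleotide exchange factor EXC-5 was the highest, with a signal value of 22.3 and rank 1066. Its summit lay 3094 bp upstream of exc-5 in a coding exon of grsp-2, 416 bp from the grsp-2 start. Replicate 2 ranked it 564 and replicate 1 had no summit within 100 bp. The Ral GTPase gene ral-1 had a signal value of 16.8 and rank 1976 at the summit printed above, 2179 bp upstream and 11680 bp from the start of the nearest other gene. Its ranks were 20041 in replicate 1 and 1890 in replicate 2.

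The formin gene exc-6 had rank 2737, in a coding exon, and the phospholipase C-beta gene egl-8 rank 3102, in an intron. The gene exc-9, which encodes a small LIM-domain protein, had rank 4320, 2341 bp upstream. The lowest was exc-1, a gene of the immunity-related GTPase family, with a signal value of 9.42 and rank 10233. The group's percentiles ran from 49.4 for exc-1 to 91.5 for exc-5, with a median of 80.1.

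Of the pair with roles in the lumen lining, the lipocalin gene lpr-1 was the higher, with a signal value of 19.7 and rank 1370. Its summit lay 1332 bp upstream within a coding exon of ptr-21 and had rank 1131 in replicate 1 and 4499 in replicate 2. The gene let-653, of a mucin-like matrix protein, had a signal value of 11.6 and rank 5772 in a coding exon. The remaining 3 exc genes, exc-14, exc-13 and exc-15, had ranks of 2813, 15105 and 15881. The exc-14 summit lay 3414 bp upstream of that gene but 10 bp from the start of pqn-51. The exc-13 summit lay in a coding exon of cyp-35A1, 912 bp from the cyp-35A1 start.

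The replicates had 1 canal gene in common, exc-7, among their strongest 737 candidates. The share of all genes reached by both was not computed, so this count has no background to stand beside. Within the gene or 5000 bp upstream, the strongest 737 candidates of replicate 1 reached 6 of 32 members (18.8%, 7.21% to 36.4%), exc-4, exc-7, sulp-8, vha-5, inx-13 and vab-10, beside 5.83% of all genes. Those of replicate 2 reached 3 of 32 (9.38%, 1.98% to 25.02%), exc-5, exc-7 and inx-12, beside 5.76%. In windows longer than the members' median the replicate 1 candidates reached 4 of 16 members and 11.7% of all genes, and the replicate 2 candidates 2 of 16 members (12.5%) and 11.96%. In shorter windows they reached 2 of 16 members (12.5%) and 4.83% of all genes in replicate 1, and 1 of 16 (6.25%) and 4.71% in replicate 2. In the promoter window each replicate reached 1 member, vab-10 in replicate 1 against 2.21% of all genes and inx-12 in replicate 2 against 2.37%.

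Of the 31 members with a pooled candidate, 28 had a replicate 2 partner within 100 bp of the strongest pooled summit (90.3%), 15 a replicate 1 partner (48.4%) and 13 both (41.9%). Over the 16770 protein-coding genes with a pooled candidate, the same shares were 72.3%, 42.7% and 27.5%. The strongest pooled summits had a median signal value of 14.7 for members and 10.4 for all such genes. These shares were not split by strength or by window length. Partners were found in replicate 2 alone for 15 members and in replicate 1 alone for 2. Over all genes too, replicate 2 partners were more frequent than replicate 1 partners, at 72.3% against 42.7%. Among the 13 members matched in both, 8 had the better rank in replicate 1, which was not counted over all genes. The median rank of matched summits was 4239 in replicate 1, over 15 members, and 3977.5 in replicate 2, over 28. The pooled list contains both replicates, so these matches are not independent of it.

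**Figure D4:**
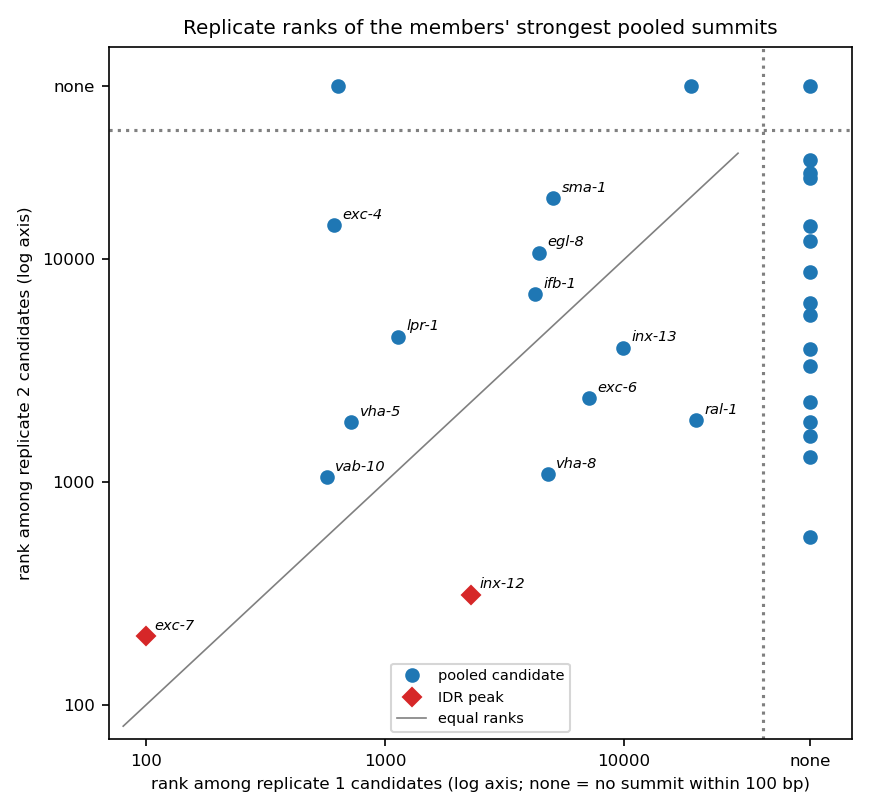
Rank of each member's strongest pooled summit among replicate 1 candidates (x axis, log scale) and replicate 2 candidates (y axis, log scale), with summits that had no partner within 100 bp on the outer lines. Only exc-7, at ranks 100 and 203, is near the strong corner in both, and 15 members have a partner in replicate 2 alone. Over all genes with a pooled candidate, replicate 2 partners were also the more frequent, at 72.3% against 42.7%.

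Genes related to the members by family or pathway were counted for comparison. Of 102 such genes 5 held an IDR summit at the promoter (4.90%, background 2.55%) and 11 had one in the gene or 5000 bp upstream (10.8%, background 6.0%). Among 19 other V-ATPase subunit genes 2 had a promoter IDR peak. For the B subunit gene vha-12 it lay 374 bp upstream with a signal value of 48.8 and rank 170, and for the A subunit gene vha-13 it lay 535 bp upstream with 39.6 and rank 297. Their replicate 2 ranks were 154 and 256, and replicate 1 had no summit within 100 bp of either. The strongest replicate 1 candidates, as many as there were IDR peaks, still included a summit elsewhere in the vha-12 promoter window. They included none in that of vha-13. The 3 V-ATPase members had no promoter IDR peak, and vha-8 came closest at rank 766.

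For the other families, IDR peaks in the promoter window are given beside the 2.55% of all protein-coding genes. None of 23 other innexin genes, 10 aquaporin genes, 7 intermediate filament genes, 11 genes of the sulp and clh transporters, 5 canal regulators or 13 kinase, polarity and exocyst genes had one in the promoter window. Among 4 other actin genes act-4 had one (25%), 265 bp upstream of an internal start, with a signal value of 28.2 and rank 644. Of 10 genes of the excretory duct and pore, 2 had one (20%). The gene eor-2, of a nuclear protein of duct cell fate, had rank 512 at 167 bp upstream, and the lipocalin gene lpr-3 had rank 736 at 58 bp upstream. The ranks were 1075 in replicate 1 and 603 in replicate 2 for eor-2, and 16976 and 413 for lpr-3. The act-4 summit had rank 515 in replicate 2 and no replicate 1 summit within 100 bp.

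With the gene and 5000 bp upstream counted, IDR peaks also fell at 6 related genes without one in the promoter window, beside the 6.0% of all genes. These were unc-32 of the V-ATPase, inx-2 among 23 innexins (4.35%), sulp-3 and clh-2 among 11 transporters (18.2%), pros-1 itself among 5 canal regulators, and aff-1, of a cell fusion protein, which made 3 of 10 duct and pore genes. Each share rests on 1 to 3 genes. Several of these summits lay in promoter windows of other genes. The unc-32 summit lay in that of lin-9, and the inx-2 summit in those of F08G12.3 and snrp-40.1. The clh-2 summit lay in those of B0491.6 and pigm-1. The aff-1 summit lay 4410 bp upstream of aff-1, within a gene that is not protein-coding. The sulp-3 and pros-1 summits lay in introns of those genes.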

How the data were processed

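ChIP-seq peak lists of eGFP-PROS-1 were analysed in the ce11 build. Per the text notes deposited with the files, the authors called candidates with a control on each replicate and on pooled alignments, and thresholded them by IDR. The deposited signal value is the peak strength relative to that control, and the deposited significance is the −log10 of the q-value. The aligner, the caller and the IDR threshold are not given in the sources used here. Lists in the older build were not used.

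Summits were placed on Ensembl release 115 gene models (WBcel235). A gene was counted if its window held a summit, windows of several genes may share one, and percentiles rank all protein-coding genes by their strongest summit, with genes without one tied lowest. Replicates were matched within 100 bp. Named were all 32 members, with full values for those with an IDR summit and the 10 best pooled ranks, and related genes with a promoter IDR summit. The other neighbouring genes were named after their values were seen. Of 104 related names 102 matched the annotation. Members and lists were chosen with earlier results of these data known, so no test was run. Window and matching code was tested on planted summits. Alternatives were other windows, single replicates, a stricter and a looser list, and other matching distances. Versions were matplotlib 3.10.9, scipy 1.17.1, pandas 2.3.3, numpy 2.4.6 and Python 3.11.15.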

Additional observations from a re-analysis of the deposited data

How the results depend on the processing

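Of 43 alternative values 15 moved, which for a count means by over 1.5 times and for another value by at least the SD between the replicates. The other 28 could still name other genes. The promoter IDR count of 1 member became 2 with a window of 2000 bp upstream to 500 bp downstream, which added exc-7 (background 3.54%), and 4 with the 2000 strongest pooled candidates. It was 1 without either replicate, but the gene was inx-12 without replicate 1 and vab-10 without replicate 2. The wider count of 2 members was 0 in the gene body only, since both peaks lie upstream. The share of all genes with an IDR summit in the gene body only was not computed. The wider count was 10 with the 2000 strongest, and 3 to 6 with 1 replicate left out, the 6 without replicate 2. The median percentile of 79.6 was 67.3 with 2000 bp upstream, 73.3 with 10000 bp, 59.8 in the promoter window, and 72.1 to 73.9 with 1 replicate left out. Summits per kb were 0.385 as reported, 0.359 with 10000 bp upstream and 0.344 without vab-10, an alternative chosen after seeing the data. Within 100 bp in place of 50 bp of the strongest summits, 4 in place of 1 held the Prospero-type core and 7 in place of 4 held GAGAGAG. Shares of all IDR peaks and all pooled candidates were not computed for this longer window. The count of 5 related genes was 2 to 6 with 1 replicate left out, and vha-12 and par-3 were the 2 without replicate 2. Apart from the count of 0 in the gene body, the cause of these changes was not tested. With 2 replicates, unknown depth and 1 group, strength between replicates could not be compared beyond ranks. No paired analysis was possible because there is only 1 group.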
